A study of Arabidopsis thaliana with 51 samples.

Results

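Flowers of Arabidopsis thaliana plants labelled Met1-1 were compared with Col flowers of the same set of libraries, set B. The labels gave 4 of the 51 libraries of the series to Met1-1 in this set, and they were set against 3 Col libraries of set B. A library is bisulfite-sequenced genomic DNA of young flowers, and the labels state that it pools flowers of 5 to 10 lines with the same flower phenotype.

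The Met1-1 libraries were Wt (wild-type flowers, no construct named), ARE//AGe with sMf flowers, ARE//AGe with rMf flowers and Ctr//AGe with rMf flowers, 1 library each. The Col libraries were Ctr//AGe with rMf flowers (1 library) and Wt without a construct (replicates A and B). Ctr//AGe rMf was thus the construct and phenotype that both genotypes shared, and ARE//AGe was present in Met1-1 but not in Col of this set. Another 2 Col libraries, Ctr//AGe with Wt flowers and AGe with rMf flowers, and 4 ddm1-1 libraries with the same constructs and phenotypes as Met1-1 were used where stated. The series title spells out ARE as an anti-RdDM element, where RdDM is RNA-directed DNA methylation. The labels explain none of AGe, AGp, Ctr, sMf and rMf, and do not state zygosity or how many generations the Met1-1 plants had been kept.

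MET1 is the plant enzyme that copies CpG methylation onto the new strand after replication, and Met1-1 is a known partial loss-of-function allele of it. Plants also methylate CHG and CHH sites, where H is A, C or T. CHG methylation is kept up mainly by CMT3, and RdDM, in which small RNAs guide the methyltransferase DRM2, places methylation in all 3 contexts. DDM1 is a chromatin remodeler that methyltransferases need in heterochromatin. The 2 kinds of site compared here were CpG methylated in plants without a construct, and the cytosines of the domains that the constructs target.

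The table covers positions 10374202 to 10391499 of TAIR10 and names no chromosome. It was taken as the region of AG (AT4G18960), a MADS-box gene of floral organ identity on chromosome 4, which the TAIR10.1 gene table places between AT4G18950 and AT4G18970. The domains were called CpG-only (10377002 to 10377701), AGp (10380602 to 10382801) and AGe (10384302 to 10387101). They held 36, 28 and 52 CpG and 55, 57 and 65 CHG, and exons and introns were not determined. Levels are percent methylation per cytosine. Depth is unknown, so no interval is given. The table does not separate copies of the sequence in a construct from the gene itself. After its rows were brought into register, 5121 of 5709 rows were analysed. Of these, 3.38% to 10.2% had no value in the Met1-1 libraries and 4.67% to 21.3% in the 3 Col libraries. Met1-1 ARE//AGe sMf stood apart from the other Met1-1 libraries outside the domains, so the differences in mean level from Col and from ddm1-1 and the counts of called cytosines are also given without it.

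CpG methylation that plants carry without any construct was nearly absent from Met1-1 flowers. Natural CpG were defined on 3 Col Wt libraries of the other sets, as CpG with a mean level of at least 20% that were above 0 in each, and 52 of them lay outside the AGp and AGe domains. The lowest of these means was 20.3%, and no CpG above 0 in all 3 libraries lay below the threshold. Their mean level was 1.80% in Met1-1 Wt, 2.77% in ARE//AGe sMf, 0.442% in ARE//AGe rMf and 2.12% in Ctr//AGe rMf. In Col it was 67.5% in Ctr//AGe rMf, 63.0% in Wt replicate A and 68.6% in Wt replicate B. The groups did not overlap, and the loss was of similar size with and without a construct. The means were 1.78% ± 0.980 in Met1-1 (SD, n = 4) and 66.4% ± 2.94 in Col (n = 3), a difference of -64.6 percentage points. The two-sided exact permutation p was 0.0571, the smallest that 4 libraries against 3 can give (Benjamini-Hochberg adjusted p = 0.121 over 17 tests). No adjusted p of these level tests could therefore pass 0.05. The difference was -64.9 points without ARE//AGe sMf and -63.5 points without Col Wt replicate B, which leaves the libraries of a single column block.

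**Figure D1:**
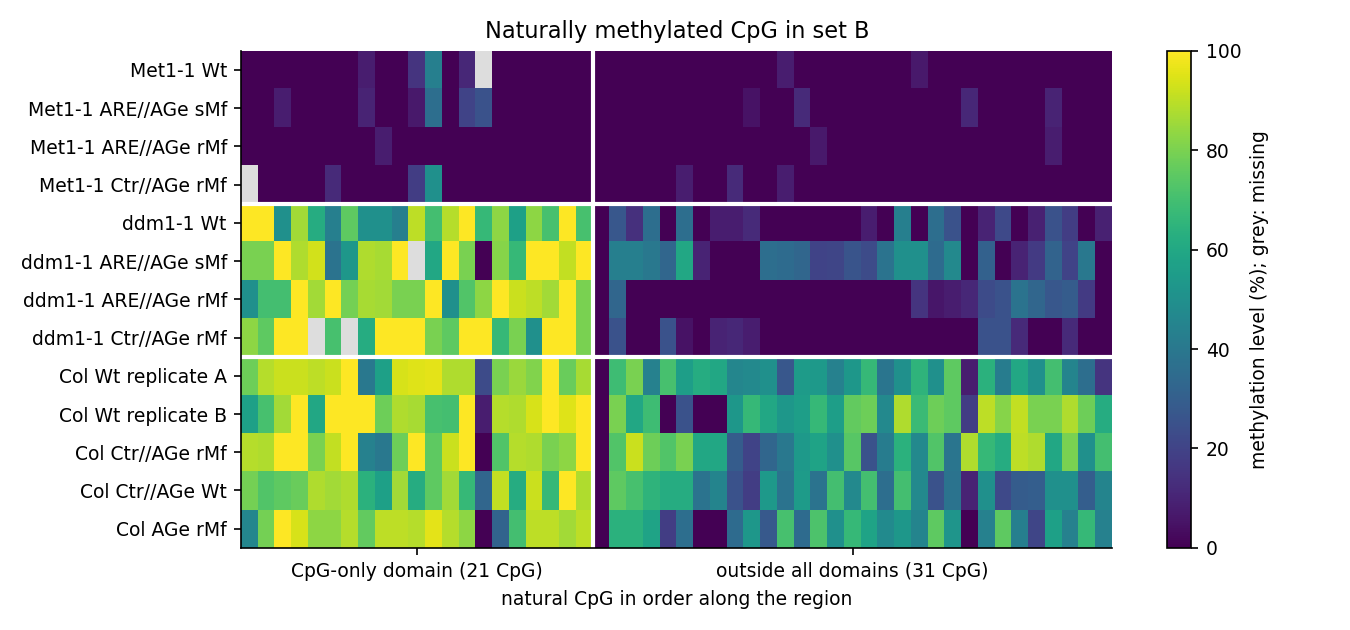
Methylation level (colour, percent) of the 52 natural CpG outside the AGp and AGe domains, 1 column per CpG and 1 row per library, with Met1-1 at the top, ddm1-1 in the middle and Col at the bottom. The Met1-1 rows are near 0 in both locations, the ddm1-1 rows are high in the CpG-only domain alone, and the Col rows are high in both.

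Natural CpG were low in Met1-1 in both of their locations. The 21 in the CpG-only domain had 3.32% ± 2.03 in Met1-1 and 81.8% ± 1.26 in Col, and the 31 between 10388629 and 10390641 had 0.774% ± 0.360 in Met1-1 and 55.9% ± 4.99 in Col. Their differences were -78.5 and -55.1 points, each with the smallest exact permutation p of 0.0571, and were -79.1 and -55.3 points without ARE//AGe sMf. Within the CpG-only domain CHG and CHH levels were low in both genotypes, with CHG at 0 to 1.02% in Met1-1 and 0.455% to 1.73% in Col. CHH there was 0.353% to 0.771% in Met1-1 and 0.241% to 0.968% in Col. Met1-1 thus had no context above 5.49% in this domain.

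Many single sites were listed at 0 throughout Met1-1. Of the 52 natural CpG, 35 were at 0 in every Met1-1 value, and 46 had all Met1-1 libraries below all 3 Col libraries. Over all cytosines tested, 5.09% had Met1-1 below Col without overlap. The CpG at 10377072 was listed at 0 in the 4 Met1-1 libraries and at 100% in the 3 Col libraries. At 10377069 Met1-1 was at 0 in all 4 libraries, against 100%, 92% and 100% in Col Ctr//AGe rMf and Wt replicates A and B. The CpG at 10377409, 10377604 and 10377010 were likewise at 0 throughout Met1-1, against 78% to 94%, 81% to 94% and 71% to 89% in Col. At 10377071 Met1-1 was at 0 in 3 libraries and 12% in Ctr//AGe rMf, against 91% to 100% in Col. These 6 were the highest natural CpG in the libraries that defined the list, and none of them had overlapping groups.

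A few sites of the CpG-only domain kept CpG methylation in some Met1-1 libraries. The CpG at 10377445 had 43% in Met1-1 Wt, 36% in ARE//AGe sMf, 0 in ARE//AGe rMf and 50% in Ctr//AGe rMf, against 75%, 96% and 71% in Col Ctr//AGe rMf and Wt replicates A and B. It was singled out after its values were seen. Outside the AGp and AGe domains it was 1 of 3 natural CpG that reached 20% in any Met1-1 library. The others were 10377470 (20% in ARE//AGe sMf) and 10377581 (25% in ARE//AGe sMf). The last of these was low in Col too, at 0, 23% and 8%. Counting all CpG of the CpG-only domain, natural or not, 3 reached 50% in Met1-1 Ctr//AGe rMf, and 1 of these was natural. None of the 31 natural CpG outside the domains reached 20% in Met1-1, the highest value there being 12%.

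Single cytosines were tested with limma on the log2 odds of the level, with the construct as a covariate. Since ARE//AGe was present in Met1-1 alone, the genotype term rested on the construct-free and Ctr//AGe libraries. The ARE//AGe pair entered only the estimate of the spread. The fit covered all contexts and regions, and 1552 cytosines were above 0 in at least 2 of the 7 libraries with a genotype term that could be estimated. At an adjusted p under 0.05, 42 were lower in Met1-1 (2.71% of those tested) and 15 were higher (0.966%, and 0.546% of CpG, which is 1 site). Of the 42 lower cytosines 39 were CpG, among 183 CpG tested (21.3%), and 33 were natural CpG, among 51 tested. The remaining 6 CpG included 10377007, at 0 in Met1-1 and at 100%, 92% and 86% in Col, and 10389624, at 0 in Met1-1 and at 80%, 73% and 64% in Col Ctr//AGe rMf and Wt replicates A and B. The natural CpG at 10377612 and 10377605 were also called, at 0 in Met1-1 and at 87% to 100% and 80% to 100% in Col. The steepest call was 10377072, with a log2 odds difference of -13.32 ± 0.30 (SE, limma adjusted p = 0.00123). Against sites listed at 0 this size depends on the offset of the transformation and is no bound. Sites at 0 throughout Met1-1 passed the filter of at least 2 libraries above 0 through Col alone. Their limma p-values, that of 10377072 included, therefore lend no independent support. Without the filter 14 cytosines were called lower. No CHG was called lower (1 at an unadjusted p under 0.05). The lower count was 9, 12 and 24 without Met1-1 ARE//AGe sMf, ARE//AGe rMf or Ctr//AGe rMf, 10 without Met1-1 Wt and 24 without Col Ctr//AGe rMf.

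Of the 15 higher cytosines, the 5 named here are CHH sites at which the Met1-1 and Col libraries did not overlap. The share of all tested cytosines with Met1-1 above Col without overlap was not determined. Their number is therefore not read as a result. Cytosines at 0 in every Col value passed the filter on low values through Met1-1 alone. Their limma p-values therefore lend no independent support, and without the filter 1 cytosine was called higher. The CHH site at 10381114 in the AGp domain had 25% in Met1-1 Wt, 46% and 57% in ARE//AGe sMf and rMf and 12% in Ctr//AGe rMf, and was listed at 0 in all 3 Col libraries (limma adjusted p = 0.0190). At 10381108 the 3 Met1-1 libraries with a value had 32%, 41% and 25%, and Col was at 0 (limma adjusted p = 0.0406). The site at 10380908 had 14%, 35%, 41% and 17% in Met1-1, against 0 in both Col Wt replicates and no value in Col Ctr//AGe rMf. Just past the AGe domain, 10387126 had 7%, 23%, 24% and 12% in Met1-1, against 2%, 0 and 0 in Col. At 10380642 Met1-1 had 2% to 10% and Col 0. Another 9 of the 15 were at 0 in both ARE//AGe libraries of Met1-1, and only Met1-1 Wt and Ctr//AGe rMf were above 0 there. The higher count was 1 without the covariate, and with a library left out it was 4 without either Col Wt replicate, 5 without Met1-1 Wt, 8, 25 and 36 without Met1-1 ARE//AGe sMf, ARE//AGe rMf or Ctr//AGe rMf, and 41 without Col Ctr//AGe rMf.

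Another 6 natural CpG, from 10380690 to 10380765, lay within the AGp domain, and these were lower in Met1-1 than in Col but not at 0. Their mean level was 17.8% in Met1-1 Wt, 27.5% in ARE//AGe sMf, 7.17% in ARE//AGe rMf and 8.17% in Ctr//AGe rMf, against 54.3%, 39.2% and 55.5% in Col Ctr//AGe rMf and Wt replicates A and B. These means did not overlap between the genotypes, nor did 5 of the 6 single sites. Both strands of the CpG at 10380690 and 10380691 kept the most, at 40% and 31% in Met1-1 Wt and 22% and 27% in Met1-1 Ctr//AGe rMf, against 57% and 89% in Col Ctr//AGe rMf. limma called none of the 6. In the same stretch limma called 2 CHH sites lower. The one at 10380715 had 0, 16%, 5% and 0 in Met1-1 Wt, ARE//AGe sMf, ARE//AGe rMf and Ctr//AGe rMf, against 22%, 22% and 23% in Col (limma adjusted p = 0.0346). The other, 10380686, had 0, 21%, 8% and 0 in Met1-1, against 14%, 21% and 14% in Col, so its groups overlapped. The remaining lower CHH call, 10377768, lay just outside the CpG-only domain, at 0 in Met1-1 and at 11% and 13% in Col Wt.

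**Figure D2:**
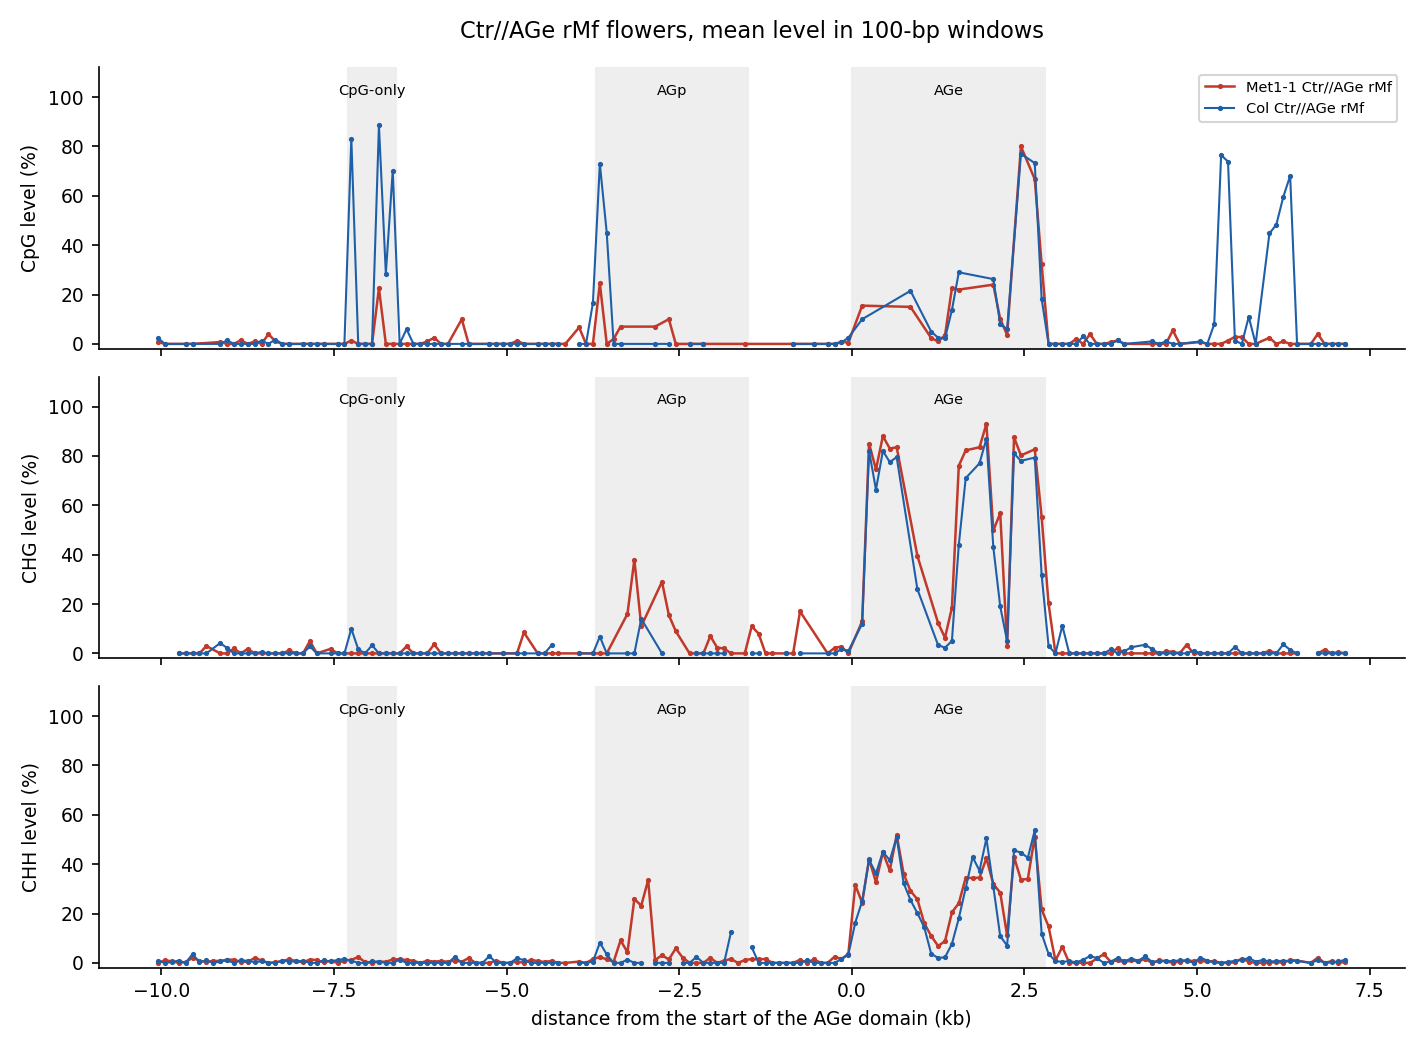
Mean methylation level (percent) in windows of 100 bp for CpG, CHG and CHH in the Ctr//AGe rMf libraries of Met1-1 (red) and Col (blue), by distance from the start of the AGe domain in kb; grey marks the domains, and lines break where a library has no value. The CpG peaks of Col outside the AGe domain are flat or low in Met1-1, while inside the AGe domain the peaks of both genotypes fall in the same windows.

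CpG methylation at the AGe target was present in both genotypes, 0.5 points apart where construct and phenotype matched. With Ctr//AGe and rMf flowers, the 52 CpG of the AGe domain averaged 20.5% in Met1-1 and 20.0% in Col. The same libraries had 2.12% and 67.5% at the natural CpG. In the AGe domain the 65 CHG averaged 63.5% in Met1-1 and 52.8% in Col, and the 636 CHH 31.0% and 29.5%. With 1 library on each side no test was possible. In Met1-1 Ctr//AGe rMf 8 CpG, 46 CHG and 114 CHH of the domain reached 50%, against 8 CpG, 39 CHG and 108 CHH in Col Ctr//AGe rMf.

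The AGe levels appeared with the construct. Met1-1 Wt, which carried none, had 0.915% CpG, 1.26% CHG and 1.43% CHH in the AGe domain, and the Col Wt replicates had 0.538% to 0.549% CpG, 0.597% to 2.75% CHG and 1.13% to 1.81% CHH. In Met1-1 ARE//AGe sMf the CpG, CHG and CHH levels were 27.7%, 60.2% and 25.5%, and in ARE//AGe rMf 24.3%, 64.5% and 30.9%. All 3 construct-carrying Met1-1 libraries thus held 20.5% to 27.7% CpG at the target while holding 0.442% to 2.77% at natural CpG.

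**Figure D3:**
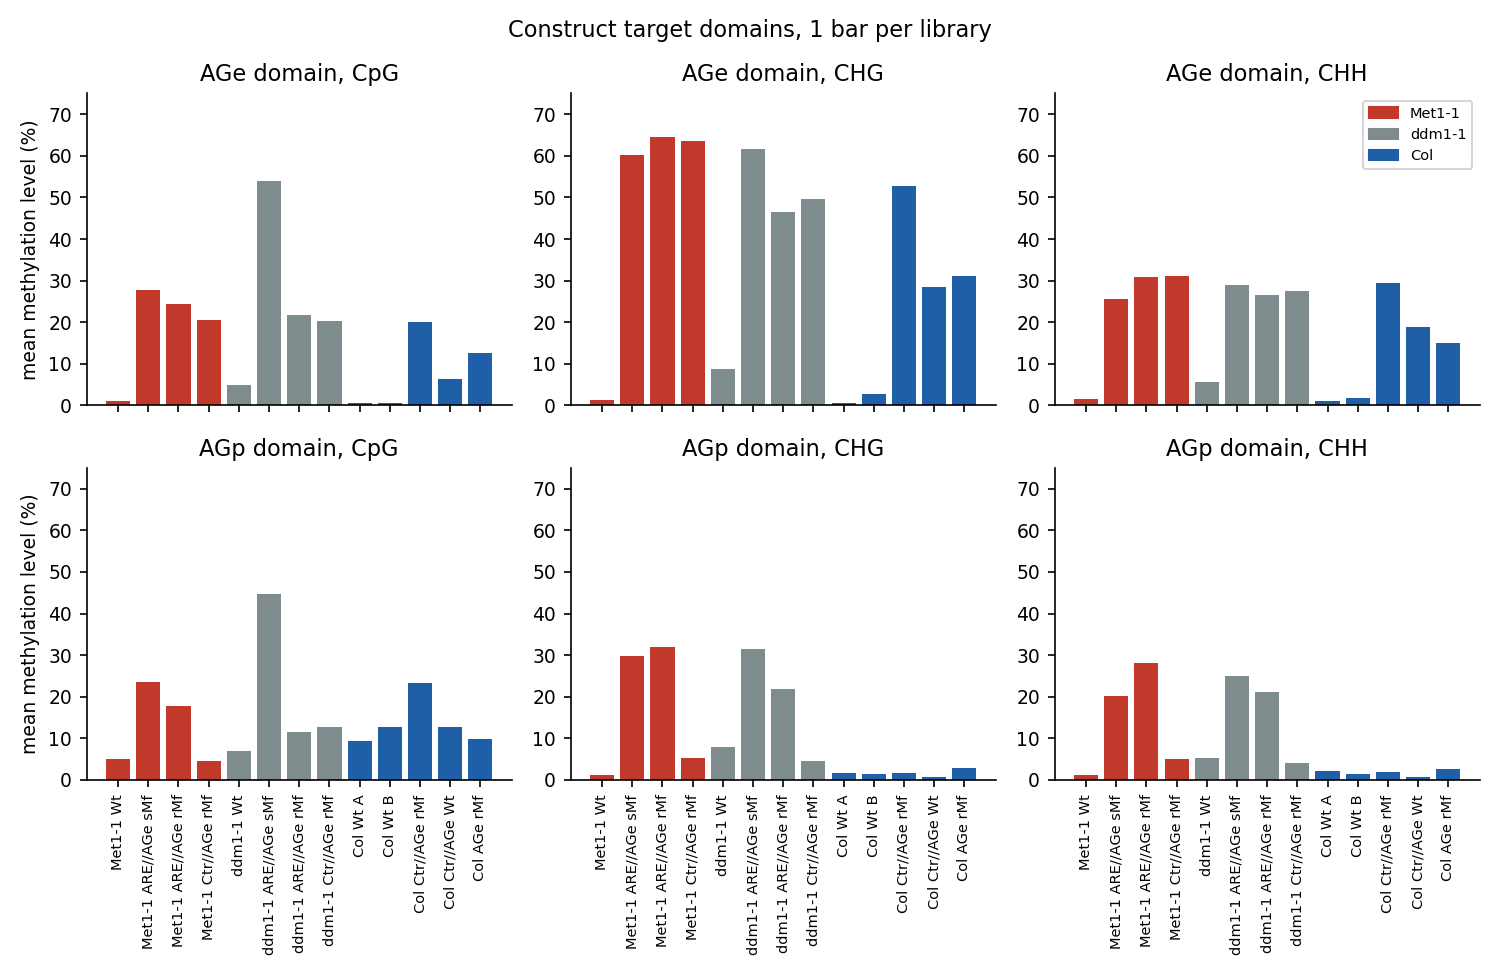
Mean methylation level (percent) over the AGe domain (top) and the AGp domain (bottom) in CpG, CHG and CHH, 1 bar per library, with Met1-1 in red, ddm1-1 in grey and Col in blue. In the AGe domain every library with an AGe construct stands above the construct-free libraries of its genotype in all 3 contexts.

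Set against all 3 Col libraries of set B that carry AGe, whose constructs and phenotypes differ from those of Met1-1, the AGe domain was not lower in Met1-1 in any context. CpG averaged 24.1% ± 3.60 in Met1-1 and 12.99% ± 6.80 in Col (SD, n = 3 each), the Col values being 20.0%, 6.40% and 12.6% in Ctr//AGe rMf, Ctr//AGe Wt and AGe rMf. Met1-1 lay above Col without overlap, with an exact permutation p of 0.1, the smallest that 3 against 3 can give. CHG averaged 62.7% ± 2.23 in Met1-1 and 37.4% ± 13.4 in Col, where the libraries had 52.8%, 28.4% and 31.1% (exact permutation p = 0.1). CHH averaged 29.2% ± 3.13 in Met1-1 and 21.1% ± 7.49 in Col, and here the groups overlapped (exact permutation p = 0.2). Without ARE//AGe sMf the differences in CpG, CHG and CHH were 9.39, 26.6 and 9.85 points, against 11.2, 25.3 and 8.04 points with it. They were 14.7, 33.0 and 12.2 points without Col Ctr//AGe rMf. None of the 752 AGe cytosines tested with limma was called between the genotypes, with 5 lower and 18 higher at an unadjusted p under 0.05.

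Single CpG of the AGe domain differed in both directions. Between the Ctr//AGe rMf libraries Met1-1 was higher at 22 of the 52, lower at 25 and equal at 5, with a median difference of 0 and a range of -30 to 29 points, and 41 of the 52 lay within 10 points. The extremes were singled out after their values were seen. Both strands of the CpG at 10385785 and 10385786 had 67% and 56% in Met1-1 Ctr//AGe rMf, against 38% and 29% in Col Ctr//AGe rMf. The ARE//AGe libraries of Met1-1 had 66% to 79% there. The CpG at 10386326 and 10386327 went the other way, with 52% and 56% in Met1-1 Ctr//AGe rMf and 54% to 61% in the Met1-1 ARE//AGe libraries, against 82% and 83% in Col Ctr//AGe rMf. The CpG at 10386965 and 10386966 were high in both, at 89% and 88% in Met1-1 and 87% and 85% in Col. Low CpG matched too, and between 10385402 and 10385725 no value passed 11% in any of these Met1-1 or Col libraries.

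**Figure D4:**
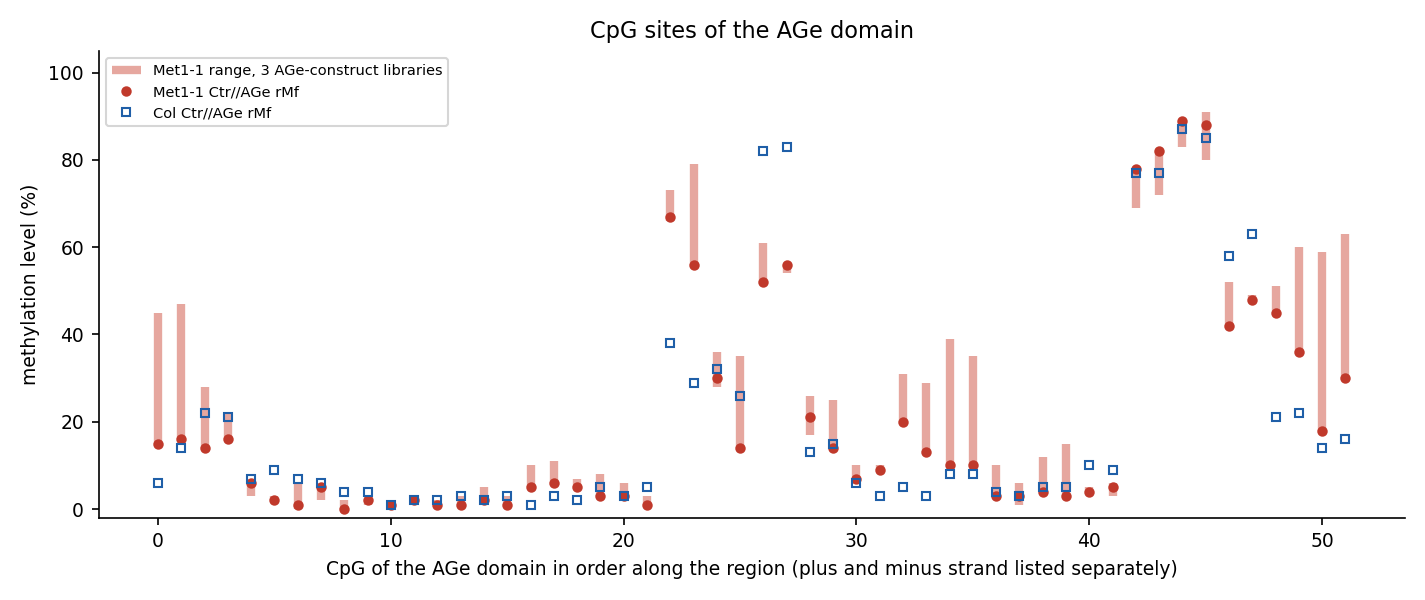
Methylation level (percent) of the 52 CpG of the AGe domain in their order along the region, with red points for Met1-1 Ctr//AGe rMf, bars for the range over the 3 Met1-1 libraries with an AGe construct and blue squares for Col Ctr//AGe rMf. Most sites that are high or low in Col are so in Met1-1, with larger gaps near the CpG at 10385785 and at 10386326.

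CpG levels of the AGe domain were on average close between strands in Met1-1 and in Col. Over its 26 CpG pairs, the levels of the cytosines on either strand differed on average by 3.88 points in Met1-1 Ctr//AGe rMf and by 3.04 and 2.54 points in Met1-1 ARE//AGe sMf and rMf. In Col Ctr//AGe rMf the mean gap was 2.19 points. These figures average the strands over many molecules and do not show whether a single molecule was methylated on both. CHG sites of the form CCG were lower than the other CHG in the AGe-construct libraries of both genotypes. Sequence was not separated from position in the domain. The 6 CHG of the form CCG averaged 25.3% in Met1-1 Ctr//AGe rMf and 25.3% in Col Ctr//AGe rMf, and the 59 of the form CAG or CTG 67.4% in Met1-1 and 55.6% in Col. Met1-1 ARE//AGe sMf and rMf had 29.5% and 26.0% at CCG and 63.4% and 68.4% at the others.

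Among windows of 100 bp with at least 3 cytosines of a context, the largest differences between the matched Ctr//AGe rMf libraries were lower CpG outside the AGe domain and higher CHG and CHH in and near the targets in Met1-1. The CpG window from 10377002 averaged 1.33% in Met1-1 and 83.2% in Col, that from 10389702 1.33% and 73.8%, that from 10377602 0 and 70.2%, that from 10390602 0 and 68.1%, and that from 10377402 22.5% and 88.5%. In CHG the window from 10386402 had 56.8% in Met1-1 and 19.0% in Col, that from 10385802 76.0% and 44.0%, and that from 10387002 55.2% and 31.8%. These 3 lie in the AGe domain and hold 4 CHG each. In CHH, 3 of the 5 named windows lay in the AGe domain, from 10386402 with 28.4% in Met1-1 and 10.8% in Col, from 10384302 with 31.6% and 16.3%, and from 10385702 with 20.5% and 7.67%. With 1 library on each side, none of these gaps has a replicate check.

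The AGp domain carried non-CG methylation in construct-carrying Met1-1 flowers. In Met1-1 ARE//AGe sMf and rMf its 57 CHG averaged 29.8% and 31.9% and its 512 CHH 20.1% and 28.0%. Met1-1 Ctr//AGe rMf had 5.16% CHG and 5.06% CHH, against 1.66% and 1.88% in Col Ctr//AGe rMf, and Met1-1 Wt had 1.13% and 1.14%, against 1.39% to 1.65% and 1.30% to 2.01% in Col Wt. The direction of the Ctr//AGe rMf differences, 3.505 points in CHG and 3.19 in CHH, depended on which cytosines were averaged. They were -0.143 and -3.28 points over cytosines with a value in all 13 libraries of set B, and 2.43 and -2.17 points with 0 counted as missing. With rows as deposited the CHG difference was -0.604 points. No Col library of set B carried ARE//AGe, so genotype and construct cannot be told apart for the ARE//AGe levels. The CpG level of the domain was 4.43% in Met1-1 Ctr//AGe rMf and 23.3% in Col Ctr//AGe rMf, where 14 of 28 CpG had a value, 6 of them natural. At the CpG of the domain that were not natural, both ARE//AGe libraries of Met1-1 had 21.2% to 22.5%, Met1-1 Ctr//AGe rMf 3.12% and Met1-1 Wt 0, and all 5 Col libraries of set B were at 0.

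Within the AGp domain the highest CHH levels of Met1-1 Ctr//AGe rMf lay in adjoining windows. The CHH window from 10381102 averaged 25.8% in Met1-1 Ctr//AGe rMf and 0 in Col Ctr//AGe rMf, with 23 of its 25 sites measured in both, and the next window 23.2% and 0, with 8 of 27 measured in both. The CHH window after these, from 10381302, had the highest level, at 33.6%, and Col Ctr//AGe rMf had no value there. The ARE//AGe libraries had 49.4% and 60.1% in the window from 10381102, and Met1-1 Wt 3.12%. In CHG the window from 10381002 had 16.0% in Met1-1 Ctr//AGe rMf and 0 in Col Ctr//AGe rMf, over 3 sites. The CHG windows from 10381102, 10381502 and 10381602, with 1 or 2 sites each, had 38.0%, 29.0% and 15.5% in Met1-1 Ctr//AGe rMf. Col Ctr//AGe rMf was at 0 in the first and second of these and had no value in the last. The Col Ctr//AGe rMf library had a value at 180 of the 512 CHH of this domain, against 390 in Met1-1 Ctr//AGe rMf.

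Outside all domains Met1-1 ARE//AGe sMf held methylation in more windows than any other Met1-1 library. Among the windows of 100 bp there, 9 reached 10% in this library, against 0 in Met1-1 Wt and 1 each in ARE//AGe rMf and Ctr//AGe rMf. In both of the latter it was the window from 10387102, which was also among the 9. Of these 9, 5 formed a stretch of 500 bp from 10379702 to 10380201, upstream of the AGp domain. Its level in ARE//AGe sMf was 26.2% in CpG, 45.3% in CHG and 16.5% in CHH. The highest value over the other Met1-1 libraries was 1.2% in CpG, 1.23% in CHG and 1.38% in CHH. ddm1-1 ARE//AGe sMf, with the same construct and phenotype, had 3.73%, 4.73% and 3.20% in the stretch, and no Col library of set B passed 2.18% in any context. The stretch was picked for its height, so these values describe it and carry no test.

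**Figure D5:**
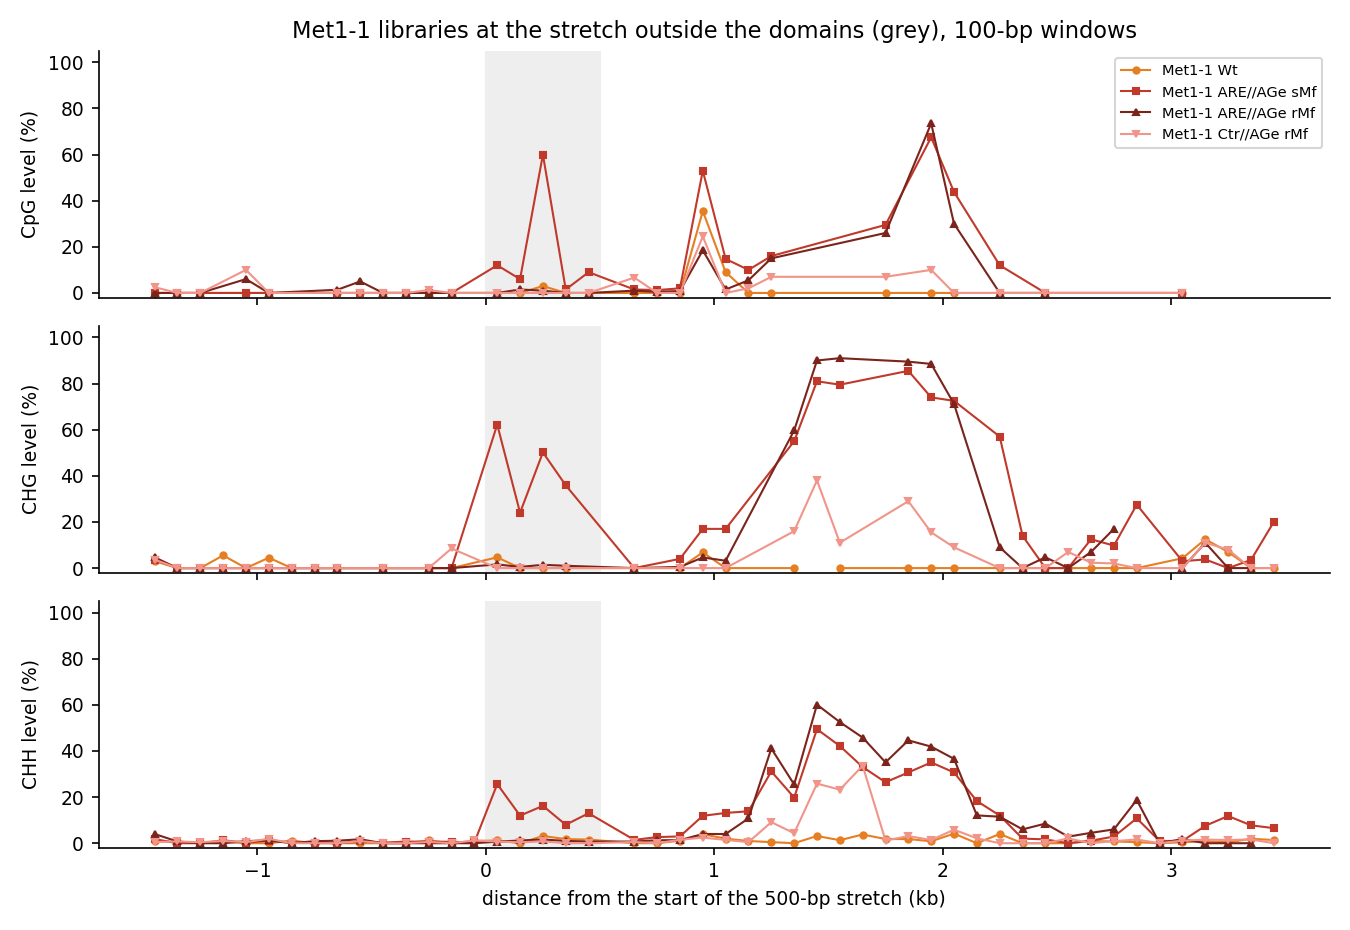
Mean methylation level (percent) in windows of 100 bp for CpG, CHG and CHH in the 4 Met1-1 libraries, by distance in kb from the start of the 500-bp stretch outside the domains (grey). In the stretch ARE//AGe sMf alone is high, while to the right, in the AGp domain, ARE//AGe rMf is as high.

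Just past the downstream edge of the AGe domain, construct-carrying Met1-1 libraries were methylated. The window from 10387102, over 32 cytosines of all contexts, had 20.5%, 16.9% and 13.6% in Met1-1 ARE//AGe sMf, ARE//AGe rMf and Ctr//AGe rMf and 0.469% in Met1-1 Wt. Col Ctr//AGe rMf had 3.23% there and Col AGe rMf 3.75%. Its 4 CHG averaged 20.2% in Met1-1 Ctr//AGe rMf and 3.0% in Col Ctr//AGe rMf. The ddm1-1 libraries with an AGe construct had 14.6% to 18.7% in this window, close to the Met1-1 range.

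Natural CpG were lower in Met1-1 than in ddm1-1 in every library, most of all in the CpG-only domain, though no adjusted p passed 0.05. Over the 52 natural CpG Met1-1 averaged 1.78% ± 0.980 and ddm1-1 39.3% ± 5.08 (SD, n = 4 each), with an exact permutation p of 0.0286, the smallest that 4 against 4 can give (adjusted 0.121). In the CpG-only domain Met1-1 had 3.32% ± 2.03 and ddm1-1 80.3% ± 5.25, and at the 31 natural CpG outside the domains 0.774% ± 0.360 and 12.6% ± 9.01. The gap between these locations was 2.55 ± 1.79 points in Met1-1 and 67.7 ± 12.0 points in ddm1-1, a difference of -65.1 points (exact permutation p = 0.0286, adjusted 0.121), chosen after the data were seen. Without Met1-1 ARE//AGe sMf the differences over all natural CpG, in the CpG-only domain, outside the domains and between the locations were -37.8, -77.5, -12.0 and -65.5 points, each at the smallest exact permutation p of 0.0571. limma called 20 cytosines lower in Met1-1 than in ddm1-1 and 0 higher, of 1766 tested (1.13% and 0, with 54 lower and 24 higher at an unadjusted p under 0.05). All 20 were CpG, and 12 of them natural. Of the others, 10377007 averaged 85.25% in ddm1-1 and was high in Col too, at 92.7%. By contrast, 10388692, 10388693 and 10388695 averaged 44.7%, 54.0% and 54.25% in ddm1-1 and 0, 2.5% and 0 in Met1-1. Their CpG window from 10388602 had 15.7% to 26.7% in ddm1-1 and 0 to 1.7% in the Col libraries of set B. The calls at 10388704 and 10388870 averaged 23.75% and 40.75% in ddm1-1 and 0 in Met1-1. Their CpG windows, from 10388702 and 10388802, had 5.6% to 20.0% in ddm1-1 and 0 to 2.75% in these Col libraries. By these window means, none of these calls shows a loss from the Col level. Cytosines at 0 throughout Met1-1 passed the filter on low values through ddm1-1 alone, so their limma p-values lend no independent support. The count of lower cytosines was 8 without that filter and 0 to 4 when any of the 8 libraries was left out.

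At the construct targets Met1-1 and ddm1-1 were compared over matched pairs, a test that could not pass 0.05 whatever the values. Over the 3 matched construct-carrying pairs the AGe domain differed by -7.84 points in CpG, 10.1 in CHG and 1.49 in CHH, and the exact sign-flip permutation p was 1, 0.5 and 0.5, where 3 pairs cannot go below 0.25. In the ARE//AGe sMf pair CpG was at 27.7% in Met1-1 and 53.8% in ddm1-1, and without this pair the differences were 1.33, 15.9 and 3.93 points. In the AGp domain the differences were -7.76, 3.0 and 0.974 points in CpG, CHG and CHH (exact sign-flip permutation p = 0.5, 0.75 and 0.75), and -1.10, 5.39 and 3.95 points without the ARE//AGe sMf pair. Over cytosines with a value in all 13 libraries the AGp differences in CHG and CHH were -4.38 and -2.96 points.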

How the data were processed

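Per the labels' protocols, DNA of pooled flowers was bisulfite treated, and libraries were made and sequenced by BGI. Bismark, HISAT2 and FastQC 0.11.9 and the build TAIR10 are named, per the submitters' processing notes. A coverage minimum and a conversion rate were not stated. The authors deposited 1 table with a signed methylation level in whole percent per cytosine and library, whose sign marks the strand, and with neither read counts nor coverage. The entry rc, which is not explained, was treated as missing. A listed 0 may be an unmethylated or an uncovered cytosine.

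The 51 columns formed 5 blocks, and in 4 of them rows had slipped against the coordinates. Set B lies in block 3, apart from Col Wt replicate B and Col AGe rMf in block 4. A hidden Markov model of the signs (displacement up to 40 rows, least posterior 0.9) raised the match between sign and strand to 99.953% and 100.0%, before which it was 59.5% and 54.5%. Pearson's r between the levels of Col Wt replicates A and B, which the model did not use, was 0.821 after and 0.580 before. Rows sharing a coordinate (68) were left out. No libraries of set B were identical.

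Levels are means over cytosines with a value. Domains are runs of 100-bp windows at 10% or more in the Col AGp//AGe sMf library of set A, which entered no test. Two-sided exact permutation tests over libraries were adjusted over 17 tests. limma 3.58.1 (R 4.3.3, trended variance) was fitted to log2((p + 0.01)/(1 - p + 0.01)), p being the level as a fraction, for cytosines above 0 in at least 2 libraries. Cytosines at which missing values left genotype and construct inseparable were not tested, a restriction added after the first fit was seen. Realignment and limma were also run on simulated data, for limma on cytosines without missing values, and no result of these runs is used here. Where nothing says that libraries come from separate cultures, p-values measure the spread between these libraries.

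Named are the 6 natural CpG highest in the defining libraries, the 5 limma calls per context and direction with the largest difference and no overlap, and, among windows with at least 3 cytosines of a context, the 5 per context that differ most between the Ctr//AGe rMf libraries. Other sites and windows are given as examples or were singled out after their values were seen. Members, domains, lists and this rule were chosen with earlier results of these data known. No sequences are printed.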

Additional observations from a re-analysis of the deposited data

Results flagged for a closer look

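The library Met1-1 ARE//AGe sMf lay far from the other Met1-1 libraries in CpG outside all domains, at 1.602% against 0.503% to 0.567%. Its CHG level outside all domains was likewise apart, at 3.69% against 0.796% to 1.183%. In both, the gap to the next library made up 0.943 and 0.866 of the range over the 4 libraries, above the Dixon critical value of 0.829. Of 7 measures looked at in this way these 2 stood out, where chance alone gives about 1 in 20. The 500-bp stretch from 10379702 holds part of this signal.

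The gap between natural CpG of the CpG-only domain and those outside the domains differed between Met1-1 and ddm1-1 by -65.122 percentage points, being 2.55 in Met1-1 and 67.7 in ddm1-1. The exact permutation p was 0.0286 over 4 libraries each, and the adjusted p was 0.121.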

How the results depend on the processing

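Directions of the natural CpG losses held under all alternatives run, and their exact permutation p moved with the number of libraries. With all 5 Col libraries of set B the differences were -61.1 (all natural CpG), -53.3 (CpG of the CpG-only domain), -76.7 (natural CpG there) and -50.5 points (natural CpG outside), with an exact permutation p of 0.0159 for each, the lowest that 4 against 5 allow. Against ddm1-1, matching on construct and phenotype left the natural CpG differences at -37.5, -76.9 and -11.8 points and the gap between locations at -65.1, each at an exact permutation p of 0.125, the smallest 4 pairs can give. Leaving out 1 library gave -38.7 to -35.0, -79.3 to -75.2, -14.3 to -7.49 and -69.8 to -60.9 points, at an exact permutation p of 0.0571 throughout. With rows as deposited, natural CpG outside the domains differed from ddm1-1 by -0.979 points (exact permutation p = 0.429).

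The deposited row order also changed the target levels, which is why rows were realigned. In the AGe domain the Ctr//AGe rMf difference of Met1-1 from Col was then 9.84 (CpG) and 2.89 (CHG) and the construct-free CpG difference -0.717. In the AGp domain the construct-free differences were -1.54 (CpG) and -1.64 (CHG), the Ctr//AGe rMf CHG difference -0.604, and the CHG difference from ddm1-1 turned to -0.316. With 0 counted as missing, the construct-free AGe differences were 6.87, 5.14 and 6.26 (CpG, CHG, CHH), the AGp differences -37.3, 2.43 and -2.17 with Ctr//AGe rMf and -25.9, 2.25 and -1.67 without a construct. Over cytosines with a value in all 13 libraries, an alternative chosen after seeing the data, the AGe differences were 7.74 (Ctr//AGe rMf CHG) and, construct-free, -0.236 (CpG) and -0.645 (CHH). The AGp differences were -21.3, -0.143 and -3.28 with Ctr//AGe rMf and -14.8, -3.32 and -2.95 without a construct, and against ddm1-1 they turned to -4.38 (CHG) and -2.96 (CHH). Without the ARE//AGe sMf pair, also added later, the AGe CpG difference from ddm1-1 turned to 1.33.

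limma's counts moved too. Lower than Col were 26 (untransformed percent), 14 (no filter), 18 (deposited rows) and 9 to 37 (a library left out), and higher were 6 (offset 0.05), 4, 1, 7, 1 (no covariate), 32 (all 5 Col libraries) and 4 to 41. Without a filter 8 were lower than ddm1-1, and with a library left out 0 to 4. The cause was not tested. Of the main 42 lower cytosines, 14 were among the 14 called without a filter and 6 among the 18 of the deposited rows. No paired analysis was possible by replicate number because the Met1-1 libraries carry no replicate letters shared with Col; the pairs with ddm1-1 are matched on construct and phenotype. Depth is unknown, so a 0 sets no limit.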
